A study of Mus musculus with 49 samples.

Results

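Ccn1, Ccn2, Tnfrsf12a, Ankrd1, Amotl2, Itga5 and Thbs1 are 7 genes known as transcriptional targets of the YAP and SRF pathways, and they were followed across all arrays of a study of arsenate in the mouse bladder. They were taken by name from the 18194 genes with a probe set assigned to that gene alone, and all 7 had at least 1 such probe set. Where a gene had several, 1 was selected on its mean signal over the 49 arrays, the highest being used, and the others served as a check. The genes themselves were chosen by name with fitted changes of these data already known, so the tests on them are no independent support for any direction.

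Female C57Bl/J mice drank water containing arsenate, an inorganic arsenic salt, at 0.5, 2, 10 or 50 ppm, or water without it (0 ppm), for 1 week or 12 weeks. The age at harvest was 76 days after 1 week and 155 days after 12 weeks, so exposure time and age cannot be told apart. Every mouse was killed with carbon dioxide and bled by cardiac puncture, the bladder was kept in RNA later, and RNA of 1 mouse without pooling went on each Affymetrix Mouse430_2 array. Each of the 10 groups of dose and harvest held 5 mice, except 0.5 ppm at 1 week with 4. All mice of a group also share a first number in their labels, whose meaning is not given, so it cannot be told apart from the dose.

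YAP and TAZ, encoded by Yap1 and Wwtr1, are coactivators held back by the kinases of the Hippo pathway and released into the nucleus when cells are stretched or spread, where they bind DNA through TEAD factors. SRF is a DNA-binding factor that responds either to actin assembly, through the MRTF coactivators and myocardin, or to growth factor signalling, through the ternary complex factors Elk1, Elk3 and Elk4. The bladder wall is stretched at each filling, and several matricellular and immediate early genes of these pathways are known to respond to stretch in bladder smooth muscle and urothelium.

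Promoter sequence shows which of the genes carry a TEAD motif close to the start of transcription. RefSeq promoter windows (build GRCm38.p6) were at hand for 5 of the 7 genes, Ccn1, Tnfrsf12a, Ankrd1, Amotl2 and Itga5, and the 250 bases before the annotated start were searched on both strands for CATTCC, the core bound by TEAD factors. Ccn1, Ankrd1 and Amotl2 held it, against 12.6% of all 32851 windows of that length. The CArG box bound by SRF, which 1.47% of windows held, and the AP-1 motif TGANTCA, which 6.75% held, matched in 0 of the 5 windows. No match overlapped another. A match is a run of letters and not a measured binding site, and a window without one says only that these letters are not in it. The whole window of Ccn1 is shown because this gene carries the largest change among the 7 (chr3:145649986-145650235, minus strand, printed 5′ to 3′ on the strand of the gene), followed by the 30 bases around the matches of Amotl2 (chr9:102717727-102717756, plus strand) and Ankrd1 (chr19:36120037-36120066 and chr19:36119950-36119979, minus strand). Capitals mark CATTCC, or GGAATG where the motif lies on the opposite strand.
Ccn1: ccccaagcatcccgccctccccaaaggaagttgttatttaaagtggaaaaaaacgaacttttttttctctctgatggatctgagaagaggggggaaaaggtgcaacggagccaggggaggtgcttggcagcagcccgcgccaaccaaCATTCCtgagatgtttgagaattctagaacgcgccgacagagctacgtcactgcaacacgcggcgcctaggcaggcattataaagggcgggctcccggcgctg
Amotl2: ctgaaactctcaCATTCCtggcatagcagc
Ankrd1, outer match: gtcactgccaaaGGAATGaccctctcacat
Ankrd1, inner match: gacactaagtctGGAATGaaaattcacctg
The match lies 103 to 98 bases before the start in Ccn1, 65 to 60 in Amotl2, and 210 to 205 and 123 to 118 in Ankrd1. In Amotl2 the window belongs to a start inside the annotated gene, so it need not be the only promoter.

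Signals are given as log2(signal + 16), on which the lowest possible value is 4, and a change is a difference of group means on that scale with its standard error. Tests come from limma, fitted at each harvest over all 14647 genes that passed a filter on dim signals, and a gene is called where the Benjamini-Hochberg adjusted p over all of these genes is under 0.05. All 7 genes passed the filter. Ankrd1 did so through 20 of 49 arrays, the other 6 on all 49. The 4 dose contrasts of a harvest share its water group, so they are not independent of each other.

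Bladder markers were bright on all arrays. The smooth muscle markers Acta2 and Actg2 averaged 15.28 and 14.98 and the uroplakins Upk1b and Upk3a 14.85 and 14.64. Of the basal urothelial markers, Krt5, Krt15 and Trp63 averaged 13.33, 14.2 and 11.19, and Krt14 averaged 5.94. At 12 weeks the spiked poly-A control RNAs were lower than in water by 0.49 at 2 ppm, 1.05 at 10 ppm and 0.86 at 50 ppm (exact permutation p = 0.0317, 0.00794 and 0.0159, two-sided; 0.206, 0.135 and 0.154 after adjustment over 136 comparisons of array measures). The hybridization controls were higher by 0.54 at 10 ppm and 0.49 at 50 ppm (exact p = 0.00794 each, 0.135 adjusted). RNA integrity numbers at 12 weeks lay between 9.3 and 9.8 in all groups. At 1 week they fell to 7.2 in the 2 ppm group and were not given for 2 mice of the 10 ppm group. In whole tissue, fewer cells of a type and less RNA per cell cannot be told apart.

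**Figure D1:**
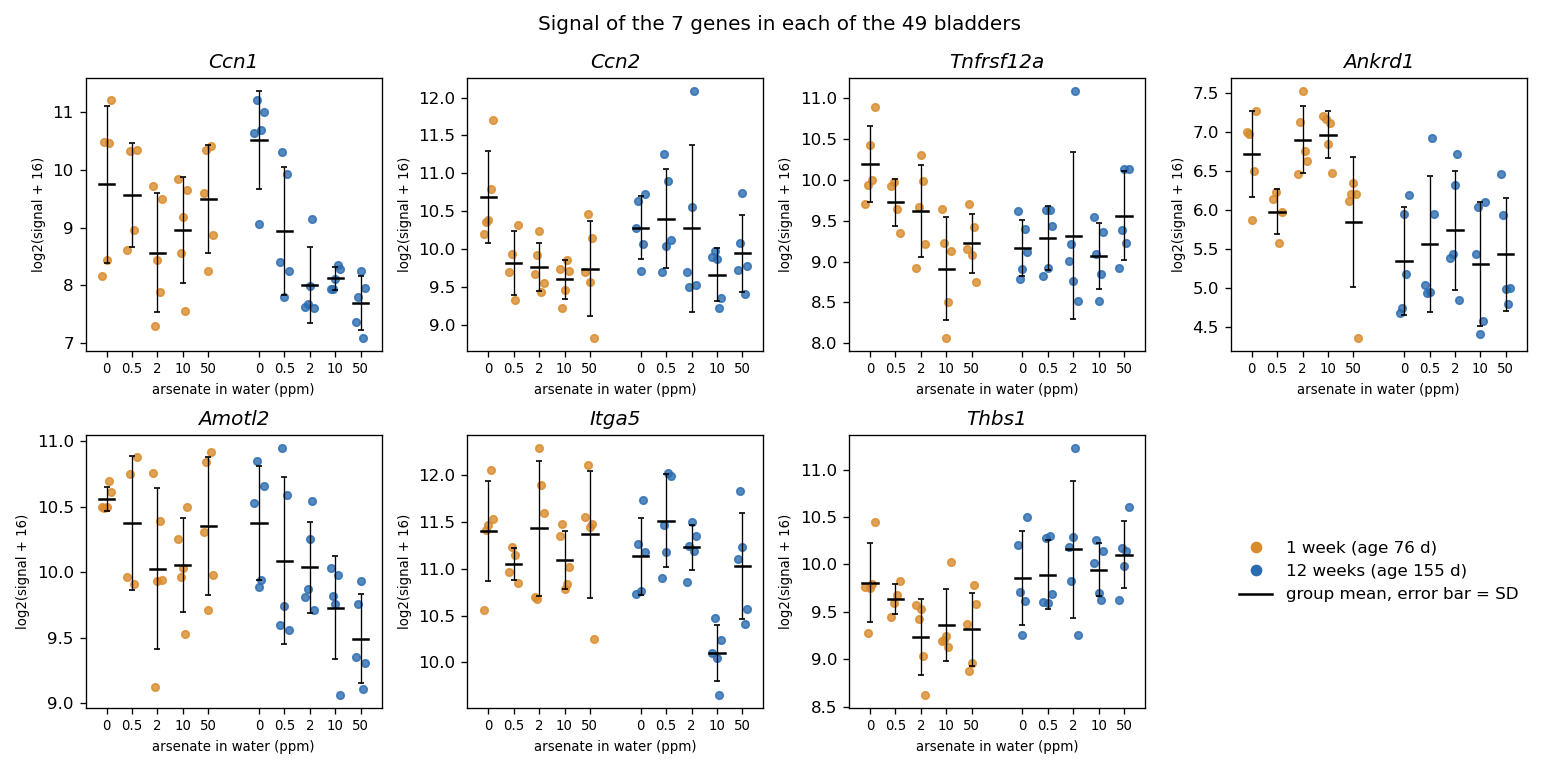
Log2(signal + 16) of each of the 7 genes in every mouse, by arsenate dose, at 1 week (orange) and 12 weeks (blue); black lines are group means and error bars are SD. Ccn1 at 12 weeks lies between 9.06 and 11.22 in water and at or below 8.36 in all mice at 10 and 50 ppm, and Itga5 at 10 ppm and 12 weeks lies between 9.65 and 10.47, below its water mice.

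Ccn1 (Entrez gene 16007, once named Cyr61) encodes a secreted matricellular ligand of integrins and is both a textbook YAP target and an immediate early gene. Its signal at 12 weeks fell at 2, 10 and 50 ppm. In the water mice it was 10.64, 11.22, 9.06, 10.69 and 11.01. The 0.5 ppm mice had 8.41, 10.32, 7.8, 9.94 and 8.24. The 2 ppm mice had 7.63, 7.68, 7.99, 9.15 and 7.6. Thus 3 of the 0.5 ppm mice and all 2 ppm mice but 1 were below every water mouse. The 10 ppm mice had 7.93, 7.93, 8.11, 8.36 and 8.29. The 50 ppm mice had 7.37, 7.79, 8.25, 7.08 and 7.95, and both of these groups lay wholly below water.

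Against a water mean of 10.53 ± 0.85 (SD, n = 5), the Ccn1 mean of 8.01 ± 0.65 at 2 ppm was a change of -2.52 ± 0.4 (limma adjusted p = 0.00737), at 10 ppm of -2.4 ± 0.4 (adjusted p = 0.00528) and at 50 ppm of -2.84 ± 0.4 (adjusted p = 0.000915). These are 5.72-fold, 5.28-fold and 7.16-fold lower signals. At 0.5 ppm the change of -1.59 ± 0.4 did not pass (adjusted p = 0.0553), although all 5 mice were below the water mean. Ccn1 was the only one of the 7 genes called at 2 ppm, where 0.0137% of all genes were called. At 0.5 ppm 0 of the 7 were called, beside 0.526% of all genes. There 1 of the 7 had an unadjusted p under 0.05, as did 19% of all genes. The slope over dose rank, water included, was -0.65 ± 0.1 per step (adjusted p = 0.00146). Among the 4 treated groups alone the slope was -0.36 ± 0.12 and did not pass (adjusted p = 0.0932).

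The poly-A spike level was also lower than in water in these groups, by 0.49, 1.05 and 0.86 at 2, 10 and 50 ppm. At 10 ppm the spikes ranged from 9.58 to 10.1, wholly below the 10.3 to 11.3 of water. Dose and spike level cannot be told apart there. With the spike level as a covariate the Ccn1 changes were -2.19, -1.7 and -2.27 at 2, 10 and 50 ppm and none was called (adjusted p = 0.124, 0.213 and 0.157), and the slope of -0.5 was not called either (adjusted p = 0.359). The same covariate left 1 of 14647 genes called at 50 ppm, where 593 had been. At 10 and 50 ppm the Ccn1 call held whichever mouse was left out, with changes of -2.77 to -2.23 and of -3.21 to -2.67. At 2 ppm leaving out water mouse 5 gave -2.4 (adjusted p = 0.0517), and the call held without any other single mouse. The 2 ppm call was also lost with all arrays in 1 fit, and the 10 ppm call with the hybridization controls as covariate.

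At 1 week Ccn1 spread widely within groups and no dose was called. The water mice had 8.16, 10.48, 8.44, 10.47 and 11.22. The 50 ppm mice had 9.61, 10.34, 8.25, 10.41 and 8.87, all within the range of water. The change was -0.26 ± 0.57 at 50 ppm (95% interval -1.42 to 0.91) and reached -1.19 ± 0.57 at 2 ppm (adjusted p = 0.836). The effect of 50 ppm was lower at 12 weeks than at 1 week by a difference of -2.58 ± 0.74, which was called (adjusted p = 0.0269), and Ccn1 was the 1 gene of the 7 so called, beside 7.31% of all genes. The slope over dose rank differed by -0.54 ± 0.17 (adjusted p = 0.0385), and here 2 of the 7 were called, beside 7.11% of all genes. These calls held in 14 of 20 and in 35 of 49 omissions of 1 mouse. Array weights ended both, as did the poly-A spikes as covariate, and the RNA integrity number or the hybridization controls as covariate also ended the call on the slope. The water means themselves, 9.75 ± 1.37 at 1 week and 10.53 ± 0.85 at 12 weeks, differed by 0.77 ± 0.52 (adjusted p = 0.352).

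Ccn1 had 4 probe sets, and they split in pairs. The second brightest (mean 8.08 against 8.95) followed the chosen one with r = 0.94 over 49 arrays and changed by -2.75 ± 0.4 at 50 ppm and -2.66 ± 0.4 at 10 ppm at 12 weeks, with adjusted p of 0.00166 and 0.00493 in a fit over all single-gene probe sets without the filter. The 2 dimmest (means 7.09 and 6.98) followed it with r = 0.44 and 0.43 and changed by -0.82 ± 0.42 and -0.33 ± 0.37 at 50 ppm (adjusted p = 0.277 and 0.676). The part of the transcript that each probe set reads is not known from the sources used here.

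Ccn2 (Entrez gene 14219, once named Ctgf), the close relative of Ccn1 and also a matricellular YAP target, behaved differently at 12 weeks. Its 12-week signal was 10.28, 10.63, 9.71, 10.06 and 10.73 in water and 9.72, 10.08, 10.74, 9.4 and 9.78 at 50 ppm, and the groups overlapped. The change of -0.34 ± 0.36 had an interval of -1.08 to 0.41 (adjusted p = 0.596). At 10 ppm it was -0.62 ± 0.36, with all 5 mice below the water mean, and did not pass (adjusted p = 0.4). The highest value of the gene in the study, 12.09, was that of 2 ppm mouse 4 at 12 weeks.

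At 1 week, Ccn2 was lower than in water at every dose and was called at 10 ppm. The water mice had 10.2, 10.36, 10.38, 10.79 and 11.7. The 10 ppm mice had 9.74, 9.22, 9.46, 9.86 and 9.71, all below every water mouse. The change was -1.09 ± 0.26 (adjusted p = 0.0459), a 2.13-fold lower signal. The changes of -0.87 ± 0.28 at 0.5 ppm, -0.92 ± 0.26 at 2 ppm and -0.95 ± 0.26 at 50 ppm were similar in size and none was called (adjusted p = 0.202, 0.608 and 0.11). Among the treated groups alone the slope was -0.039 ± 0.076 (adjusted p = 0.864). The call at 10 ppm was lost when any 1 of 8 mice was left out (water mice 2, 3, 4 and 5 and 10 ppm mice 2, 3, 4 and 5), with changes over all 10 omissions between -1.21 and -0.83 and adjusted p up to 0.11. It was also lost under 5 of the 12 processing alternatives, namely no filter, the RNA integrity number or the poly-A spikes as covariate, all arrays in 1 fit and the block on label numbers (changes of -1.14 to -0.97 over the 12, adjusted p up to 0.0939). The RNA integrity number averaged 8.73 in the 3 mice of the 10 ppm group that had one and 9.28 in water (exact p = 0.143, 0.422 adjusted). The fit with that number as covariate left out the 2 mice without one, so it also compared fewer mice. The part of RNA integrity was not tested beyond that covariate.

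Thbs1 (Entrez gene 21825) encodes thrombospondin-1, a matricellular ligand of Cd36, Cd47 and integrins, and was called in no dose contrast. At 12 weeks its group means ran from 9.86 ± 0.49 in water to 10.16 ± 0.72 at 2 ppm. At 1 week they ran from 9.81 ± 0.42 in water down to 9.23 ± 0.4 at 2 ppm, a change of -0.57 ± 0.21 with all 5 mice below the water mean (adjusted p = 0.767). At 50 ppm the 1-week change was -0.49 ± 0.21, again with 5 of 5 mice below the water mean (adjusted p = 0.345). The second probe set followed the chosen one with r = 0.9 but changed by 0.011 ± 0.16 at 50 ppm at 1 week, so the lower signal at that dose was not seen in both. At 0.5, 2 and 10 ppm it changed by 0.035 ± 0.17, -0.21 ± 0.16 and -0.17 ± 0.16, and none was called.

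Tnfrsf12a (Entrez gene 27279) encodes Fn14, the receptor of the cytokine TWEAK, and its lower signals came at 1 week. The water mice had 9.71, 9.94, 10.43, 10 and 10.89. The 10 ppm mice had 9.64, 9.23, 8.06, 8.5 and 9.13, and the 50 ppm mice 9.15, 9.71, 9.08, 9.42 and 8.75. All 10 ppm values lay below water, and so did those at 50 ppm, the highest of which printed like the lowest water value and was below it before rounding. Tnfrsf12a fell by 1.28 ± 0.27 on the log2 scale at 10 ppm (adjusted p = 0.0209), a 2.43-fold lower signal. The second probe set changed by -1.07 ± 0.28 and was not called (adjusted p = 0.0664 over all single-gene probe sets). The change of -0.97 ± 0.27 at 50 ppm did not pass (adjusted p = 0.11), and the slope over dose rank of -0.28 ± 0.064 just missed (adjusted p = 0.0508). Ccn2 and Tnfrsf12a were the only 2 of the 7 genes called at 10 ppm at 1 week, where 0.778% of all genes were called, 16.7% of these higher, or 27.6% after quantile normalization. After that normalization Tnfrsf12a changed by -1.06 and missed the call (adjusted p = 0.0518). Leaving out water mouse 3 or 5, or 10 ppm mouse 3 or 4, also ended it, with changes over all 10 omissions of -1.47 to -1.07 and adjusted p up to 0.0888.

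At 10 ppm and 1 week the mean of the smooth muscle markers was lower than in water by 0.24 (13.1 to 13.5 against 13.4 to 13.7, exact p = 0.0397, 0.208 adjusted), with 10 of 10 markers lower and 0 called. The mean of the basal urothelial markers was higher by 0.33 (11.2 to 11.5 against 10.8 to 11.2, exact p = 0.0159, 0.154 adjusted), with 4 of 4 higher and 0 called. Liver genes were lower in both the 10 ppm and the 50 ppm group. Their mean level was 7.55 to 8.45 at 10 ppm and 6.78 to 8.09 at 50 ppm, against 7.94 to 10.4 in water (exact p = 0.0556 and 0.0159, 0.252 and 0.154 adjusted). At 50 ppm 5 of the 6 were lower and 3 were called (Alb, Serpina1b and Fga), and at 10 ppm 6 of 6 were lower and 0 called. The part of these markers in the lower Ccn2 and Tnfrsf12a was not tested.

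At 0.5, 2 and 50 ppm at 1 week 0 of the 7 genes were called, beside 0.0478%, 0% and 0.335% of all genes. An unadjusted p under 0.05 was found for 2, 5 and 4 of the 7, beside 12.5%, 5.93% and 11.5% of all genes. At 1 week 7, 5, 6 and 7 of the 7 were nominally lower than water at 0.5, 2, 10 and 50 ppm, with medians over the 7 of -0.35, -0.57, -0.51 and -0.49, beside medians over all genes of 0.0074, 0.0045, 0.0086 and 0.007. At 12 weeks these counts were 2, 3, 6 and 4, with medians of 0.12, 0.1, -0.62 and -0.1, beside 8e-04, -0.0051, -0.03 and -0.036 over all genes. The 4 contrasts of a harvest share its water group, and most pairs of the 7 genes varied together between mice. The genes counted are therefore not separate observations. Over dose rank at 1 week 0 of the 7 were called with water and 0 without it, beside 0.266% and 0.0546% of all genes. An unadjusted p under 0.05 was found for 3 and 1 of the 7, beside 9.7% and 13.1% of all genes.

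Tnfrsf12a at 12 weeks was not lower than water at 50 ppm. The water mice had 9.62, 8.78, 8.91, 9.4 and 9.12 and the 50 ppm mice 8.92, 9.39, 10.13, 9.23 and 10.13, with a change of 0.39 ± 0.33 (adjusted p = 0.48). The slope over dose rank at 12 weeks was higher than that at 1 week by 0.33 ± 0.1 (adjusted p = 0.0357), opposite in sign to the difference for Ccn1. The 50 ppm effect differed by 1.37 ± 0.45 and missed the threshold (adjusted p = 0.0515). The water groups also differed, by -1.03 ± 0.32 (12 weeks against 1 week, adjusted p = 0.0246), so the difference between harvests includes a difference between their controls. The second probe set followed with r = 0.91.

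Ankrd1 (Entrez gene 107765) encodes a stretch-responsive ankyrin repeat protein of muscle. It was dim, averaging 5.98 over 49 arrays, and its 2 probe sets had the same mean and followed each other with r = 0.4. At 1 week the water mice had 7, 6.97, 5.87, 6.5 and 7.27 and the 50 ppm mice 6.11, 6.21, 6.34, 6.2 and 4.35. The change was -0.88 ± 0.31 (adjusted p = 0.242), and the second probe set gave -0.21 ± 0.29. At 12 weeks the group means lay between 5.31 ± 0.8 and 5.74 ± 0.76 at all 5 doses, and no dose was called. The water mice at 12 weeks were lower than those at 1 week by 1.38 ± 0.41 on the log2 scale (adjusted p = 0.0179). The second probe set gave -0.68 ± 0.32 for the same contrast and was not called (adjusted p = 0.189). With an offset of 1 in place of 16 the adjusted p of the first was 0.166. Ankrd1 passed the filter on 20 of 49 arrays, and its group means at 1 week, 5.84 to 6.97, were above those at 12 weeks. The water mice of Ankrd1 lay between 4.68 and 6.19 at 12 weeks and between 5.87 and 7.27 at 1 week. The split of the 20 arrays between harvests was not counted. A filter on dim signals favours the harvest where a gene is brighter, so the Ankrd1 call is no independent support for a difference between harvests. Ankrd1 and Tnfrsf12a were 2 of 7 genes called between the water groups, where 13.3% of all genes were called. In the same contrast 10 of 10 smooth muscle markers were lower with 5 called, 7 of 7 fibroblast markers with 6 called, 4 of 5 skeletal muscle markers with 3 called and 6 of 6 liver genes with 5 called, and their part in these values was not tested. Leaving out water mouse 1 at 12 weeks or mouse 5 at 1 week ended the Ankrd1 call (adjusted p up to 0.0539), and water mouse 2 or 3 at 12 weeks or mouse 3 or 5 at 1 week ended that of Tnfrsf12a (changes from -1.15 to -0.86 over all 10 omissions).

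Amotl2 (Entrez gene 56332) encodes an angiomotin family scaffold that binds YAP and is itself a YAP target. At 12 weeks the water mice had 10.53, 10.85, 9.89, 9.94 and 10.66 and the 50 ppm mice 9.35, 9.76, 9.93, 9.11 and 9.31. All 50 ppm mice were below the water mean, but the highest, 9.93, was above the lowest water mouse, 9.89. The group means declined from 10.38 ± 0.43 in water through 10.09 ± 0.64, 10.04 ± 0.35 and 9.73 ± 0.39 to 9.49 ± 0.34 at 50 ppm. The change of -0.88 ± 0.25 at 50 ppm was called (adjusted p = 0.0421), and so was the slope of -0.21 ± 0.053 per dose rank (adjusted p = 0.0222). Ccn1 and Amotl2 were the only 2 of the 7 genes called at 50 ppm and over dose rank at 12 weeks, where 4.05% and 5.22% of all genes were called.

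The Amotl2 call at 50 ppm was lost when any 1 of 7 mice was left out (water mice 2, 3 and 5 and 50 ppm mice 1, 2, 4 and 5), with changes over all 10 omissions of -1 to -0.77 and adjusted p up to 0.134. The slope lost its call without water mouse 2 or 50 ppm mouse 4 (adjusted p up to 0.0623). The call was also lost under 5 of the 12 processing alternatives, namely no filter, array weights, and the RNA integrity number, the poly-A spikes or the hybridization controls as covariate (changes of -0.98 to -0.74 over the 12, adjusted p up to 0.504, with the poly-A spikes). The slope was lost with the poly-A spikes or the hybridization controls (adjusted p up to 0.54). At 1 week the change at 50 ppm was -0.21 ± 0.25 (adjusted p = 0.811), and the 5 water mice, at 10.49 to 10.7, were the tightest group of the gene. At 0.5, 2 and 10 ppm it was -0.18 ± 0.27, -0.53 ± 0.25 and -0.51 ± 0.25 (adjusted p = 0.831, 0.836 and 0.301). The harvests did not differ by a called amount for Amotl2, with -0.68 ± 0.37 for the 50 ppm effect and -0.14 ± 0.084 for the slope (adjusted p = 0.25 and 0.319).

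Itga5 (Entrez gene 16402) encodes the alpha subunit of the fibronectin receptor. It was called lower at 10 ppm at 12 weeks, and the other dose contrasts of either harvest were not called. Whether 10 ppm differed from the other doses was not tested. The water mice had 10.73, 11.26, 10.76, 11.73 and 11.18. The 10 ppm mice had 10.1, 10.47, 10.05, 9.65 and 10.24, all below every water mouse. The 50 ppm mice had 11.1, 11.83, 11.23, 10.41 and 10.57, with 2 inside the range of water, 2 below it and 1 above. The change was -1.03 ± 0.23 at 10 ppm (adjusted p = 0.0482), -0.1 ± 0.23 at 50 ppm (95% interval -0.58 to 0.37) and 0.38 ± 0.23 at 0.5 ppm (adjusted p = 0.375).

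Itga5 and Ccn1 were 2 of 7 genes called at 10 ppm at 12 weeks, beside 0.335% of all genes. In that contrast Alas2, the 1 red blood cell marker tested, was lower by 1.12 (6.64 to 7.9 against 7.78 to 9.08, exact p = 0.0159, 0.154 adjusted). The mean of the mesothelial markers was lower by 0.35 (8.99 to 9.52 against 9.26 to 9.93, exact p = 0.0714, 0.278 adjusted), with 6 of 7 lower and 0 called. Their part was not tested. The second probe set of Itga5 changed by -0.97 ± 0.25 (adjusted p = 0.0802 over all single-gene probe sets, r = 0.93 with the first) and the 2 dimmest by -0.73 ± 0.3 and -0.24 ± 0.24. The call held without water mouse 1 (adjusted p = 0.0205) and was lost when any 1 of the other 9 mice of the 2 groups was left out, with changes of -1.13 to -0.88 and adjusted p up to 0.141. With the poly-A spike or the hybridization control level as a covariate the change was -0.94 or -1.3 and was not called (adjusted p up to 0.249), and the call was also lost with no filter and with the RNA integrity number as covariate. Among the treated groups at 12 weeks 0 of the 7 slopes were called, beside 3.58% of all genes. An unadjusted p under 0.05 was found for 3 of the 7, beside 18.5% of all genes.

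**Figure D2:**
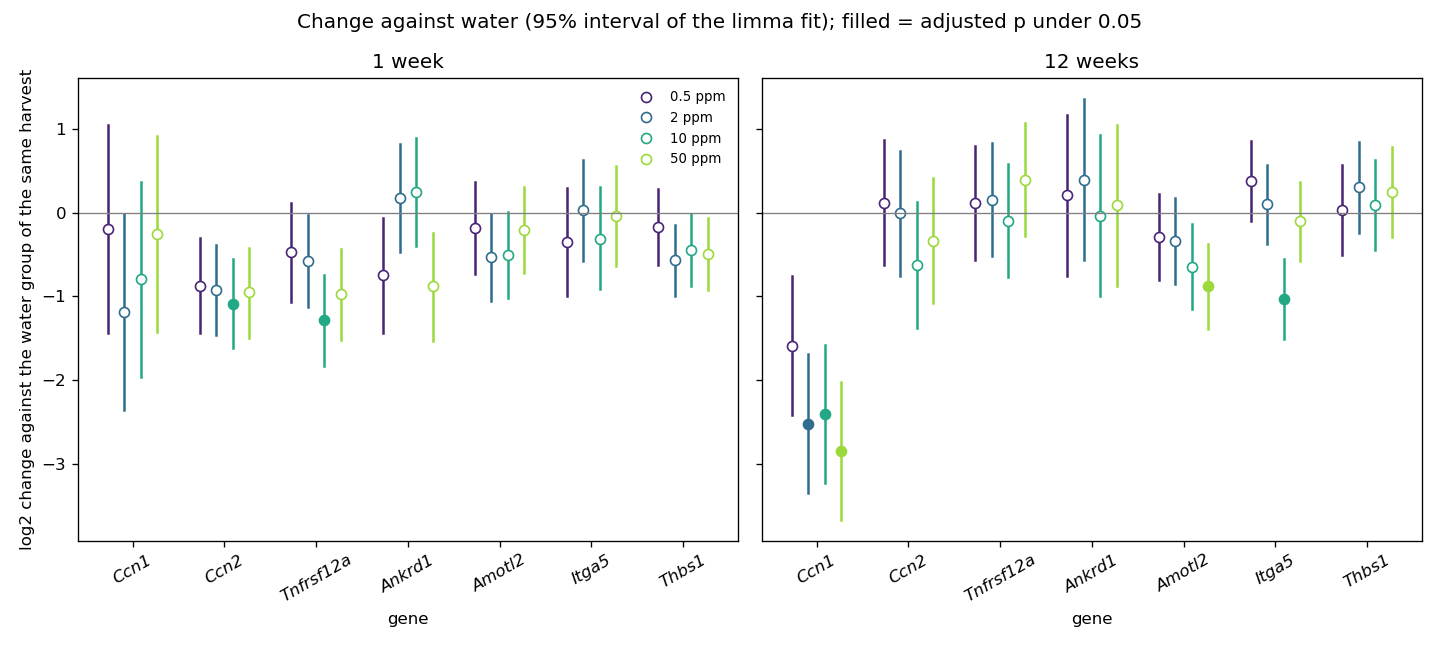
Log2 change of each gene against the water group of the same harvest, by dose, with 95% intervals from limma; filled points have an adjusted p under 0.05. At 1 week only Ccn2 and Tnfrsf12a at 10 ppm are filled, and at 12 weeks Ccn1 at 2, 10 and 50 ppm, Itga5 at 10 ppm and Amotl2 at 50 ppm.

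Ordered by their means, neighbouring groups rarely stood apart. Of the 9 neighbouring pairs of each gene, 1 differed by more than the larger SD for Tnfrsf12a, Ankrd1 and Itga5, and 0 did for Ccn1, Ccn2, Amotl2 and Thbs1. The order was not shared by the genes. Ccn1 was highest in water at 12 weeks (10.53) and lowest at 50 ppm at 12 weeks (7.69), while Tnfrsf12a was highest in water at 1 week (10.19) and lowest at 10 ppm at 1 week (8.91). The span of the 10 group means was 2.84 for Ccn1, against a pooled SD within groups of 0.9, and 0.92 for Thbs1, against 0.42.

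Most pairs of the 7 genes varied in the same direction between mice of the same group. After each group mean was subtracted, 20 of the 21 pairs of genes had a positive Pearson r over the 49 mice, with a median of 0.36. Over all 107259981 pairs of tested genes 50.3% were positive, the median was 0.002, and 9.76% reached the median of the 7, which is a description of genes that share arrays. Of the 21 pairs, 13 had a permutation p under 0.05 after adjustment over the 21 pairs (arrays permuted within groups, 100000 times, two-sided), and 8 did when mouse 4 of the 2 ppm group at 12 weeks, or mouse 5 of the 50 ppm group at 1 week, was left out alone. The closest pair was Ccn1 and Amotl2 (r = 0.73, rho = 0.73, p = 1e-05, the smallest that these permutations can give, adjusted p = 0.000105 for r and 0.00021 for rho). It held at 1 week (r = 0.72, 24 mice), at 12 weeks (r = 0.78, 25 mice) and without the 2 mice farthest from the median of Ccn1 (r = 0.75). Ccn1 and Ccn2 followed with r = 0.6 and rho = 0.6 (p = 4e-05 and 5e-05, adjusted 0.00028 and 0.00035), 0.51 at 1 week and 0.76 at 12 weeks. Ccn2 and Amotl2 had r = 0.59 and rho = 0.63 (p = 1e-05 and 2e-05, adjusted 0.000105 and 0.00021), 0.34 at 1 week and 0.78 at 12 weeks.

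Some pairs held at 1 harvest more than at the other. Tnfrsf12a and Thbs1 had r = 0.74 at 12 weeks and 0.17 at 1 week, whereas Tnfrsf12a and Itga5 had 0.1 at 12 weeks and 0.64 at 1 week; these differences were not tested. Itga5 and Thbs1, which share a role in adhesion, had r = -0.08. Ankrd1 and Amotl2 had r = 0.04.

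Mouse 4 of the 2 ppm group at 12 weeks was the highest of its group for 6 of the 7 genes, with 11.09 for Tnfrsf12a and 11.23 for Thbs1, and Itga5 was the exception. Without it 8 pairs passed in place of 13 (10000 permutations), and 8 also passed without mouse 5 of the 50 ppm group at 1 week. Leaving out any other single mouse gave 12 to 16. Without the 2 ppm mouse, r at 12 weeks went from 0.68 to 0.45 for Ccn2 and Tnfrsf12a and from 0.78 to 0.76 for Ccn1 and Amotl2.

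**Figure D3:**
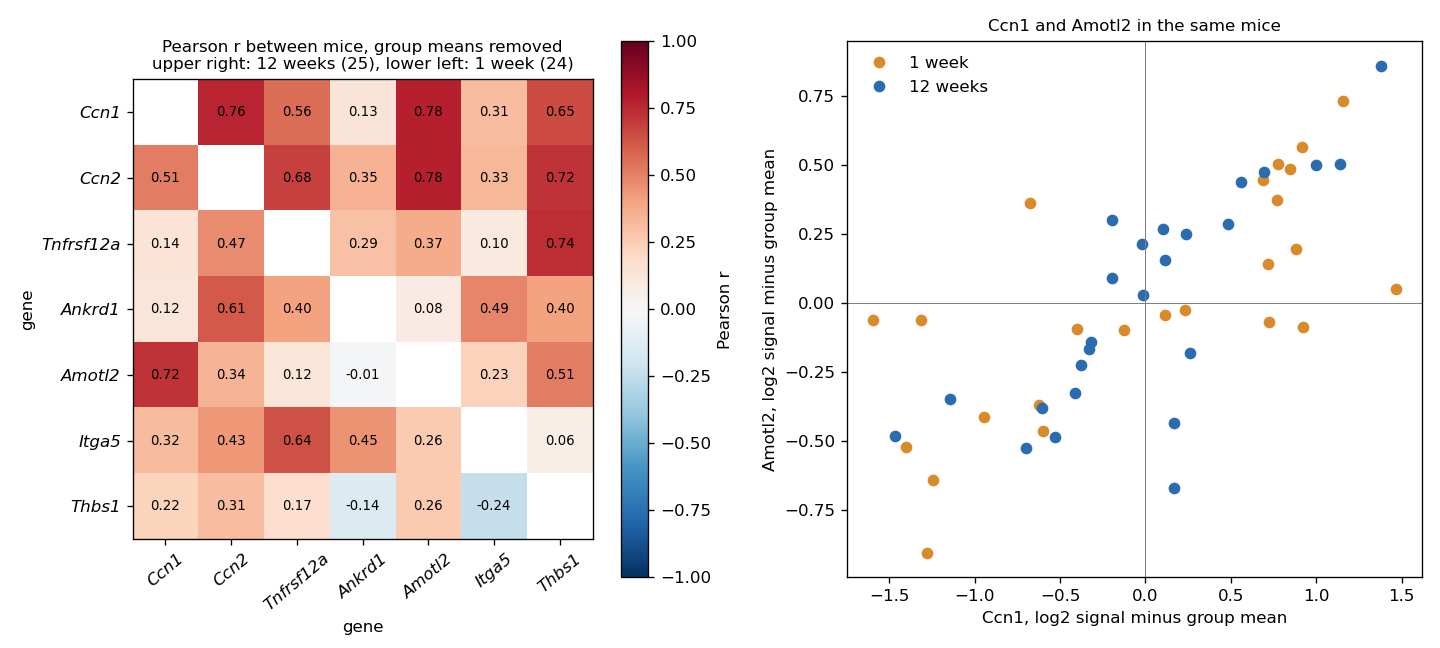
Left, Pearson r between each pair of the 7 genes over mice after group means were removed, at 12 weeks (upper right) and 1 week (lower left); right, Ccn1 against Amotl2 in the 49 mice as log2 signal minus group mean. The pair Ccn1 and Amotl2 reaches r = 0.72 at 1 week and 0.78 at 12 weeks, and Itga5 with Thbs1 is near 0 or below.

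Over the same 49 mice, the genes outside the 7 closest to each were named by their r after removal of group means, as a description. Ccn1 was closest to Dusp1, a phosphatase gene induced as an immediate early gene (r = 0.7), and to Klf2, a transcription factor gene induced by shear stress (r = 0.7). Ccn2 was closest to Dusp10 (r = 0.74) and Pxdc1 (r = 0.69). Amotl2 was closest to Ajuba, a LIM protein that inhibits the Hippo kinases (r = 0.76), and to Icam1, an adhesion receptor gene (r = 0.73). Itga5 had the tightest partners, Ppp1r18 (r = 0.9) and the actin-associated Pdlim7 (r = 0.87), and Ppp1r18 also followed it over the 10 group means (r = 0.93). Tnfrsf12a was closest to Chchd4 and Gmppb (r = 0.69 and 0.66), Thbs1 to H60c and Tmem229a (r = 0.81 and 0.74), and Ankrd1 to Ccn5 and Atp10a (r = 0.64 and 0.57).

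Other genes of the pathways were taken from lists that were also drawn up with earlier results of these data known. At 50 ppm and 12 weeks, 3 of 7 tested genes for YAP, TAZ and TEAD factors rose and 0 fell, with a list median of 0.031 beside -0.036 over all genes. Of all genes tested, 2.28% rose and 1.77% fell in that contrast. They were Tead1 (from 10.36 ± 0.27 in water to 11.08 ± 0.14, change 0.71 ± 0.17, adjusted p = 0.024), Wwtr1 (0.68 ± 0.12, adjusted p = 0.00664) and Yap1 (0.28 ± 0.077, adjusted p = 0.0391). Tead3 and Vgll4, a cofactor that competes with YAP for TEAD, changed by -0.33 ± 0.16 and -0.34 ± 0.22 at 50 ppm and were not called. Over dose rank among the treated groups at 12 weeks 1 gene of the list rose and 1 fell, where 3.58% of all genes were called. Tead3 averaged 9.65, 9.48, 8.83 and 8.92 from 0.5 to 50 ppm. Of 13 Hippo kinases and upstream regulators, 3 rose and 0 fell at 50 ppm and 12 weeks, with a median of 0.11. Mob1b and Mob1a, the coactivators of the LATS kinases, rose by 1.06 ± 0.23 and 0.61 ± 0.15 (adjusted p = 0.0195 and 0.0249). The kinase gene Taok1 rose by 0.81 ± 0.18 (adjusted p = 0.0204), and Lats1 changed by 0.27 ± 0.11 without a call. Ptpn14, a YAP-binding phosphatase gene that is also a YAP target, fell over dose rank by 0.071 ± 0.02 per step (adjusted p = 0.0364) and changed by -0.31 ± 0.091 at 50 ppm (adjusted p = 0.0528).

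Of 20 other YAP target genes, 1 rose and 1 fell at 50 ppm and 12 weeks, with a median of 0.04. Ajuba fell by 1.24 ± 0.35 on the log2 scale (from 11.19 ± 0.74 to 9.95 ± 0.18, adjusted p = 0.0427), and Nt5e, an ectonucleotidase gene, rose by 0.85 ± 0.23 (adjusted p = 0.04). Axl, Crim1 and Myof, standard YAP targets, changed by 0.17 ± 0.14, 0.43 ± 0.3 and 0.27 ± 0.12 and were not called. Of 11 relatives of the 7 genes, such as Ccn5 and Thbs2, 0 were called, with a median of -0.12, and the largest values were -0.84 ± 0.48 for Ankrd2 and -0.52 ± 0.33 for Ccn6 (adjusted p = 0.289 and 0.347).

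Of 10 immediate early SRF targets, 5 fell and 0 rose at 50 ppm and 12 weeks, and the list median was -1.13. The water group of this contrast was itself higher than that of 1 week, with 10 of 10 of these genes higher, 5 called and a median of 0.8. Egr1 went from 12.6 ± 0.53 in water to 9.72 ± 0.43 (change -2.87 ± 0.34, adjusted p = 7.8e-05), and Fos from 12.92 ± 0.57 to 11.04 ± 0.26 (-1.88 ± 0.28, adjusted p = 0.00196). Nr4a1 (-1.89 ± 0.51), Dusp1 (-1.19 ± 0.24) and Ier2 (-0.67 ± 0.15) also fell, with adjusted p of 0.0373, 0.0161 and 0.023. Of 21 cytoskeletal SRF targets, 1 rose (Tpm1, 0.36 ± 0.1, adjusted p = 0.0418) and 0 fell, with a median of 0.19, and Cald1 changed by 0.46 ± 0.18 without a call. Among 7 genes for SRF and its cofactors, Elk3 fell by 0.42 ± 0.1 (adjusted p = 0.0263) and 0 rose, with a median of 0.092, and myocardin (Myocd) changed by 0.59 ± 0.18 (adjusted p = 0.0594).

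Of 14 receptors and adhesion partners 1 rose and 0 fell, with a median of 0.11. This was Itgb1, the beta subunit that pairs with Itga5 (from 10.73 ± 0.47 to 11.55 ± 0.17, change 0.83 ± 0.19, adjusted p = 0.024). Itgav, which pairs with the same subunit, changed by 0.5 ± 0.15 without a call (adjusted p = 0.0601). Of 10 stretch-responsive bladder genes 1 rose and 0 fell, with a median of -0.2. It was the matrix crosslinking enzyme gene Lox (0.93 ± 0.24, adjusted p = 0.0337), and Hbegf changed by -0.49 ± 0.25. After adjustment for the poly-A spikes 1 gene of the whole table was called in that contrast, so at most 1 of the calls in these lists holds under it.

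The mean of the smooth muscle markers was higher than water by 0.37 at 50 ppm and 12 weeks (13.3 to 13.7 against 12.9 to 13.3, exact p = 0.00794, 0.135 adjusted), with 10 of 10 markers higher and 1 called (Synm). The mean of the endothelial markers was higher by 0.25 (8.63 to 8.88 against 8.32 to 8.63, exact p = 0.00794, 0.135 adjusted), with 5 of 6 higher and 0 called. The mean of the fibroblast markers was higher by 0.23 (exact p = 0.0873, 0.312 adjusted), with 6 of 7 higher and 0 called. That of the mesothelial markers was lower by 0.18 (exact p = 0.246, 0.54 adjusted), with 6 of 7 lower and 1 called. Alas2, the 1 red blood cell marker tested, was lower by 0.69 (7.18 to 7.93 against 7.78 to 9.08, exact p = 0.0317, 0.206 adjusted). At 2 ppm and 12 weeks Alas2 was lower by 0.67 (exact p = 0.0397, 0.208 adjusted). Marker means also differed from water at 0.5 ppm and 12 weeks, where 0 of the 7 genes were called. Those of smooth muscle, endothelium and fibroblasts were higher by 0.34, 0.39 and 0.39 (exact p = 0.0238, 0.00794 and 0.0159, adjusted 0.18, 0.135 and 0.154). That of the mesothelial markers was lower by 0.43 (exact p = 0.0476, 0.24 adjusted). The part of the markers in the changes of the 7 genes and of the lists was not tested.

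**Figure D4:**
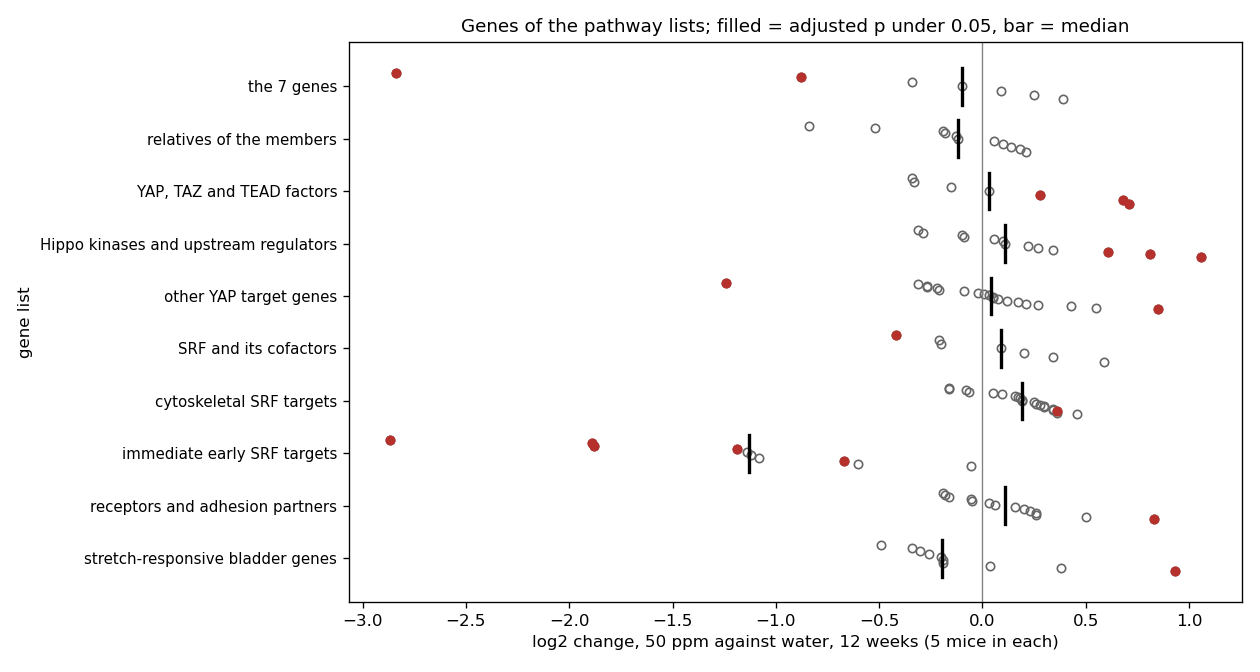
Log2 change at 50 ppm against water at 12 weeks for the 7 genes and for the genes of each pathway list (5 mice in each group); filled points have an adjusted p under 0.05 and bars are list medians. The immediate early SRF targets have a median of -1.13, and the medians of the other lists lie between -0.2 and 0.19.

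At 1 week and 50 ppm, 0 of the 10 immediate early SRF targets were called, although all 10 were nominally lower with a median of -0.52 beside 0.007 over all genes, and Egr1 changed by -0.61 ± 0.3 (adjusted p = 0.431). Crim1 fell by 1.05 ± 0.19 (adjusted p = 0.00971), as did the syndecan gene Sdc4 by 1.02 ± 0.18 (adjusted p = 0.00971), and they were the only listed genes called in that contrast outside the cell type markers. At 10 ppm and 1 week, where Ccn2 and Tnfrsf12a fell, the SRF coactivator gene Mrtfa fell by 0.51 ± 0.12 (adjusted p = 0.0465), the protocadherin gene Fat4 by 0.56 ± 0.14 (adjusted p = 0.0478) and Hbegf by 0.71 ± 0.15 (adjusted p = 0.0205). At 10 ppm and 12 weeks Egr1 and Fos fell by 2.82 ± 0.34 and 1.49 ± 0.28 beside Ccn1 (adjusted p = 0.000115 and 0.0186), and Elk3 fell by 0.47 ± 0.1 (adjusted p = 0.0408). Fos, with a change of -1.9 ± 0.28 (adjusted p = 0.00481), was the other of the 2 genes of the whole table called at 2 ppm and 12 weeks.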

How the data were processed

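The authors deposited 1 linear intensity signal per probe set and array. The submitters' processing notes name GCOS 1.0, with no settings stated. On every array the 2% trimmed mean was 500.003 to 500.004, so arrays had been scaled to a common mean. Of 45101 probe sets, 64 were controls, 34958 had a single gene in the platform annotation, 932 several and 9147 none. For arrays no reads are counted, and the number of arrays limits precision.

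Values were taken as log2(intensity + 16), with no further normalization (array medians spanned 0.458). For each gene the probe set with the highest mean was taken, and it was tested if 4 or more arrays had it above their own 40th percentile. Each harvest was fitted with limma 3.58.1 in R 4.3.3 (lmFit, eBayes with a trend), and all 49 arrays together for differences between harvests. Dose ranks ran from 0 in water to 4 at 50 ppm. Intervals are 95% from the moderated fit. The fit was tested on simulated data. The log2 signals of each marker list were averaged per array, and these and other array measures were compared by exact permutation tests. Correlations used Python 3.11.15 and numpy 2.4.6.

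The 7 genes and the lists were chosen with earlier results of these data known. Listed genes named are the up to 4 called at 50 ppm or over dose rank at 12 weeks with the largest change at 50 ppm, or the 2 largest; Tead3, Vgll4, Lats1, Axl, Crim1, Myof, Ier2, Sdc4, Mrtfa, Fat4 and Cald1 were added after their values were seen. Alternatives changed the offset, normalization, filter, probe sets, array weights, covariates, pooling of harvests, a block on label numbers and each array in turn.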

Additional observations from a re-analysis of the deposited data

Results flagged for a closer look

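In groups of 4 or 5 mice, 6 of the 70 tested combinations of gene and group had an end value far from the rest by Dixon's 95% limit, where chance gives about 1 in 20 (3.5 of 70). For Ccn1 these were water mouse 3 at 12 weeks, the lowest of its group at 9.06, and 2 ppm mouse 4 at 12 weeks, the highest of its group at 9.15. The same 2 ppm mouse was the highest of its group for Tnfrsf12a at 11.09. Ankrd1 had a lowest value of 4.35 in 50 ppm mouse 5 at 1 week, Amotl2 a lowest value of 9.06 in 10 ppm mouse 5 at 12 weeks, and Thbs1 a highest value of 10.03 in 10 ppm mouse 5 at 1 week. Without water mouse 3 the Ccn1 change at 12 weeks was -2.88 at 2 ppm and -3.21 at 50 ppm.

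The effect of dose differed between the harvests, by the test of the difference itself, in 3 cases. The 50 ppm effect on Ccn1 was lower at 12 weeks by -2.58 and its slope over dose rank by -0.54, whereas the slope of Tnfrsf12a was higher at 12 weeks by 0.33. Leaving out 1 mouse kept the first call in 14 of 20 omissions (-2.95 to -2.18, adjusted p up to 0.0666). It was lost without water mouse 2 or 50 ppm mouse 4 at 12 weeks, or water mouse 1 or 3 or 50 ppm mouse 2 or 4 at 1 week. The second call held in 35 of 49 (-0.61 to -0.46, adjusted p up to 0.0813). It was lost without water mouse 2, 4 or 5, 0.5 ppm mouse 2 or 4, or 50 ppm mouse 1 or 4 at 12 weeks. At 1 week the mice were water 1 and 3, 0.5 ppm 2 and 4, 10 ppm 1, and 50 ppm 2 and 4. The third held in 42 of 49 (0.3 to 0.36, adjusted p up to 0.071). It was lost without water mouse 2 or 3 or 50 ppm mouse 3 or 5 at 12 weeks, or water mouse 3 or 5 or 50 ppm mouse 3 at 1 week.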

How the results depend on the processing

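No change of a called gene reversed under any alternative run, and 39 changes not called either way, of 1224 values, took the other sign (80 of 1722 when leaving out 1 mouse). How many of the 7 genes were called moved as follows, always from the counts given above. With an offset of 1, 1 was called between the water groups. With an offset of 64, 1 was called over dose rank at 1 week and 2 for the difference in the 50 ppm effect. Quantile normalization left 1 at 10 ppm and 1 week. Without a filter, 1 was called at 10 and at 50 ppm at 12 weeks and 1 at 10 ppm at 1 week. With the filter at the 60th percentile, which removes Ankrd1, 1 was called at 0.5 ppm at 12 weeks, 1 over dose rank at 1 week, 2 for the difference in the 50 ppm effect and 1 between the water groups. With all probe sets tested, 1 was called over dose rank at 1 week. The cause of these moves was not tested.

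With array weights, 1 was called at 50 ppm and 3 over dose rank without water at 12 weeks, 2 at 50 ppm and 2 over dose rank at 1 week, and 1 for the difference in slopes. The whole table moved too. Array weights gave 1327 genes in place of 593 at 50 ppm and 1653 in place of 524 over dose rank without water at 12 weeks. The count of 1 for the difference in the 50 ppm effect did not move, but the gene did: Ccn1 lost its call (-2.18) and Tnfrsf12a gained one (1.37, adjusted p = 0.0391). With the RNA integrity number as covariate, 1 was called at 10 and at 50 ppm at 12 weeks, at 10 ppm at 1 week and for the difference in slopes. Fits with this covariate on 1-week arrays left out the 2 mice of the 10 ppm group without that number. With the poly-A spike level, 0 were called at 2, 10 and 50 ppm and over dose rank at 12 weeks and for both differences between harvests, and 1 at 10 ppm at 1 week. Of all genes, this covariate left 0 called at 2 ppm, 1 at 50 ppm and 0 over dose rank at 12 weeks. For the differences in the 50 ppm effect and in slopes it left 92 and 221. With the hybridization control level, 0 were called at 10 ppm and 1 at 50 ppm and over dose rank at 12 weeks, and 0 for the difference in slopes. With all arrays in 1 fit, 0 were called at 2 ppm at 12 weeks and 1 at 10 ppm at 1 week.

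Deviations of same-numbered mice of different doses had a mean r of 0.018 at 12 weeks and -0.01 at 1 week. Mice of different numbers had -0.0049 and 0.0025. The numbers were therefore not used to pair mice in the main fits, although a mean over all tested genes cannot exclude a shared step. With the replicate block, 1 gene was called at 0.5 ppm at 12 weeks (Ccn1, adjusted p = 0.0495) and 1 at 10 ppm at 1 week, where Ccn2 lost its call; no other count of the 7 moved.

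Leaving out each mouse in turn gave 0 to 1 called at 0.5 and at 2 ppm, 1 to 2 at 10 and 50 ppm and over dose rank and 0 to 1 over dose rank without water at 12 weeks. At 1 week it gave 0 to 2 at 10 ppm and over dose rank, 0 to 1 at 50 ppm and 0 otherwise. It gave 0 to 2 for both differences between harvests and between the water groups. Pairs of genes that varied together, 13 in all, numbered 14 after quantile normalization and 8 to 16 without 1 mouse, an alternative chosen after seeing the data.

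Counts over all genes moved more. They were 77 at 0.5 ppm (0 to 531 by alternative), 2 at 2 ppm (0 to 4), 49 at 10 ppm (17 to 500), 593 at 50 ppm (1 to 1327), 765 over dose rank (0 to 1729) and 524 without water (0 to 1653) at 12 weeks. At 1 week they were 7 (2 to 400), 0 (0 to 2), 114 (72 to 1262), 49 (48 to 435), 39 (25 to 337) and 8 (2 to 39). Leaving out 1 mouse gave 47 to 1617 at 50 ppm at 12 weeks, the lowest without water mouse 2 and the highest without water mouse 1. Differences between harvests had 1071 (92 to 1918) and 1041 (221 to 2046) and the water groups 1951 (1512 to 3611). Ankrd1 lies near the floor of the scale, so its changes depend on the offset.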
